A study of Mus musculus with 9 samples.

Results

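Exosomal miRNAs of TCMK-1 cells were compared after hypoxia/reoxygenation (H/R) against normoxia, both with a control lentivirus. The members are 6 of the 9 sequenced libraries, chosen by their labels: 3 of H/R-LV-NC and 3 of LV-NC. TCMK-1 is a mouse cell line derived from kidney tubular epithelium. The H/R-LV-NC cells carried the empty control vector at a multiplicity of infection of 100 and were kept for 24 h in 1% O2 before a return to 21% O2 that lasted 12 h. The LV-NC cells carried the same vector and were not made hypoxic. The remaining 3 libraries were of cells that overexpressed BMAL1 during H/R. They entered the filter on low counts, the scaling factors and the shared estimate of the spread, but neither group compared. The control vector also encodes EGFP and a puromycin resistance gene. No source states whether replicate libraries derive from different cultures, and each p-value measures only the spread between these libraries.

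Exosomes are small vesicles that cells release with a cargo that includes miRNAs, short RNAs that pair with messenger RNAs mainly through the seed near their 5′ end and lower their translation or stability. Hypoxia stabilises the transcription factor HIF-1, which activates a set of genes that includes the locus of miR-210, the best known miRNA of the hypoxic response. miR-210 in turn targets regulators of mitochondrial iron-sulfur clusters. Vesicle RNA reports what was released and survived, so the level of a miRNA in the vesicles and its level in the cells cannot be told apart here. Fewer releasing cells, fewer vesicles and less of a miRNA in each vesicle cannot be told apart either.

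The sequences below are those the results turn on, the miR-210 pair, miR-27a-3p that the study follows, the lower miR-155-5p and miR-17-5p, the low-abundance miR-341-3p, and the most abundant miRNAs with their shared seeds. They are mature sequences from RefSeq (GRCm38.p6), 5′ to 3′, with bases 2 to 8 (the seed) in capitals.
miR-210-3p: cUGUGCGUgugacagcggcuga
miR-210-5p: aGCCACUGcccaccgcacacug
miR-27a-3p: uUCACAGUggcuaaguuccgc
miR-155-5p: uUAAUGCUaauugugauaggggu
miR-17-5p: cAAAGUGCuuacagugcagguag
miR-341-3p: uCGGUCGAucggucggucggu
miR-125b-5p: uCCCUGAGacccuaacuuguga
miR-125a-5p: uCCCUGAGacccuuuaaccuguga
let-7b-5p: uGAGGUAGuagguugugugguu
let-7c-5p: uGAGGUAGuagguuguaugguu
miR-125b-5p and miR-125a-5p share a seed, as do let-7b-5p and let-7c-5p. No other tested miRNA with a sequence shared the seed of miR-210-3p, miR-210-5p, miR-155-5p or miR-341-3p.

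The unique molecular identifiers (UMIs) of the library kit let PCR copies of one molecule count once. Totals were 1342712, 807158 and 1447040 UMIs for H/R-LV-NC 1 to 3, against 980407, 977490 and 1147768 UMIs for LV-NC 1 to 3. The table lists 1978 mature miRNAs, and 1682 passed the filter on low counts and were tested. The H/R-LV-NC libraries had UMIs for 1962 to 1972 miRNAs, against 1939 to 1956 in the LV-NC libraries. Levels are in CPM, the UMI count scaled to the same total in every library, and 1 UMI was worth 0.691 to 1.24 CPM in H/R-LV-NC, against 0.871 to 1.02 CPM in LV-NC.

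Among the 6 libraries compared, H/R-LV-NC 2 had the largest share of scarce miRNAs. In H/R-LV-NC 2 the miRNAs averaging under 100 CPM took 6.36% of the UMIs, compared with 3.41% for H/R-LV-NC 1, 4.75% for H/R-LV-NC 3, and 3.36% to 3.69% across the LV-NC libraries. It was higher still in a BMAL1 library outside the comparison, at 7.11% in H/R-LV-BMAL1 1, whose TMM factor was 0.94. The group means were 4.84% ± 1.48 in H/R-LV-NC and 3.51% ± 0.169 in LV-NC (SD, n = 3 each), with an exact two-sided permutation p of 0.3, where 0.1 is the smallest that 3 against 3 libraries allow. TMM, a trimmed mean of log ratios over all miRNAs, assigned H/R-LV-NC 1 to 3 factors of 1.05, 1.71 and 1.25, against 1.03 to 1.07 in the LV-NC libraries. Computed over the miRNAs of at least 100 CPM alone, the same factors were 1.00 to 1.07 for H/R-LV-NC, against 0.964 to 1.08 for LV-NC. Results are therefore given both by total UMIs (CPM) and by TMM, and over all tested miRNAs the median log2 fold change was 0.36 by total UMIs and 0.01 by TMM.

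The difference between the scalings followed abundance. For the 1219 miRNAs of 10 to 100 CPM the median log2 fold change, H/R-LV-NC over LV-NC, was 0.45 by total UMIs and 0.10 by TMM. For the 176 miRNAs under 10 CPM it was 0.35 by total UMIs and 0.01 by TMM. For the 208 miRNAs of 100 to 1000 CPM it was 0.10 and -0.21 by the same scalings, and for the 79 miRNAs of at least 1000 CPM it was 0.03 and -0.27. By total UMIs 45 of those 79 were higher in H/R-LV-NC, and by TMM 3 were. The abundant miRNAs thus sat near 0 on one scale and below it on the other.

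**Figure D1:**
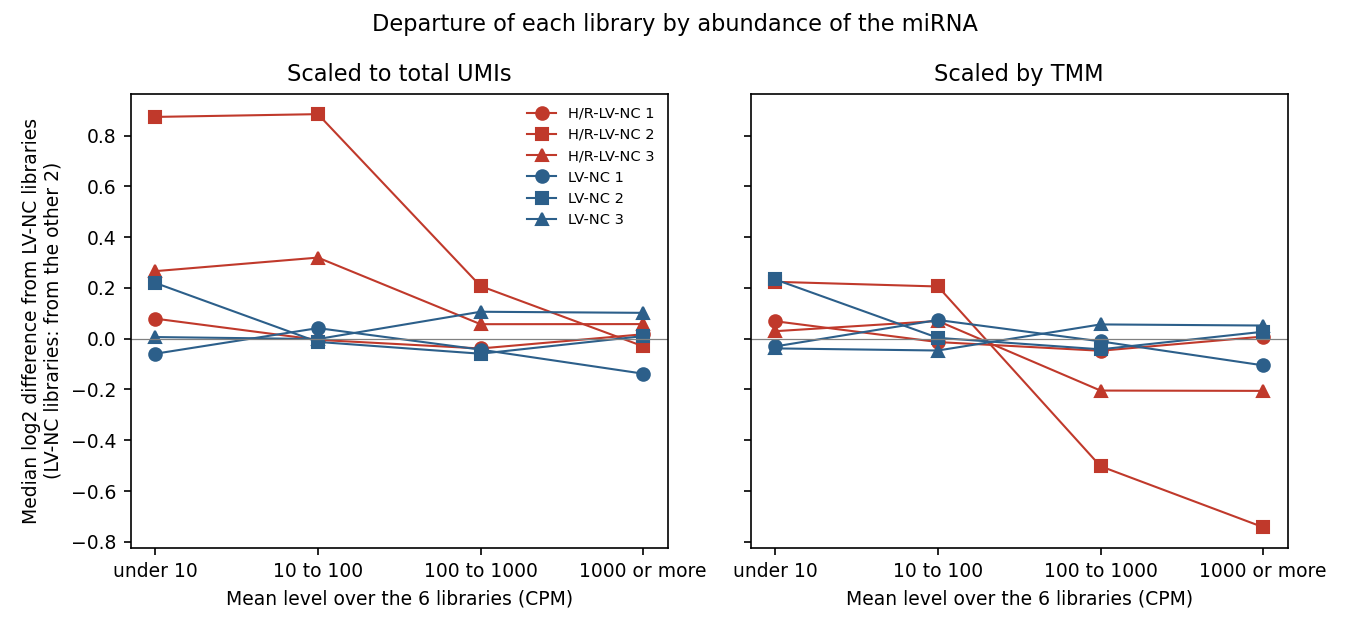
Median log2 difference of each library from the LV-NC libraries (for an LV-NC library, from the other 2), in 4 classes of mean CPM, by total UMIs (left) and by TMM (right). H/R-LV-NC 2 lies at 0.88 for miRNAs of 10 to 100 CPM by total UMIs and at -0.74 for those of at least 1000 CPM by TMM, while H/R-LV-NC 1 stays near 0 in both.

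Most of the departure was in H/R-LV-NC 2. By total UMIs its miRNAs of 10 to 100 CPM had a median log2 difference from the LV-NC libraries of 0.88, with 0.32 for H/R-LV-NC 3 and -0.00450 for H/R-LV-NC 1. By TMM its miRNAs of at least 1000 CPM had a median of -0.74, with -0.21 for H/R-LV-NC 3 and 0.01 for H/R-LV-NC 1. Of the 1219 miRNAs of 10 to 100 CPM, 815 had serial numbers of 1000 and over, which were registered later. Over all 1682 tested miRNAs 1024 had such numbers. The 815 miRNAs of 10 to 100 CPM with numbers of 1000 and over summed to 20900, 41110 and 29591 CPM in H/R-LV-NC 1 to 3, against 20760 to 22723 CPM in the LV-NC libraries. The 404 with numbers under 1000 went the same way, at 10977, 17925 and 14562 CPM against 10311 to 11813 CPM. The 69 miRNAs of at least 1000 CPM with numbers under 1000 summed to 892337, 830972 and 869511 CPM in H/R-LV-NC 1 to 3, against 881874 to 892596 CPM in the LV-NC libraries. Without H/R-LV-NC 2 the median over all tested miRNAs, by total UMIs, was 0.11 on the log2 scale. The part of this library in the results was not tested beyond leaving it out.

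miR-210-3p had the smallest p of all tested miRNAs by both scalings, and it rose by total UMIs. It lies at chr7:141221407-141221428 on the minus strand (positions of the deposited table, which match GRCm38), within the Mir210 gene. Its level was 1288, 1197 and 1224 CPM in H/R-LV-NC, against 334, 393 and 461 CPM in LV-NC. The groups did not overlap, and the lowest H/R-LV-NC library lay far above the highest LV-NC library. The mean was 1236 ± 47.1 CPM in H/R-LV-NC and 396 ± 63.7 CPM in LV-NC (SD, n = 3 each). By total UMIs this was a 3.12-fold rise (95% interval 2.42 to 4.03), with a log2 fold change of 1.64 (SE 0.16) and an adjusted p of 0.00356 by edgeR's quasi-likelihood test.

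By TMM the same miRNA was at 1225, 699 and 975 scaled CPM in H/R-LV-NC, against 324, 379 and 431 scaled CPM in LV-NC. The groups again did not overlap, but the factor of H/R-LV-NC 2 spread the H/R-LV-NC values. The fold change was 2.56 (95% interval 1.64 to 3.98), the log2 fold change 1.35 (SE 0.29), and the adjusted p 0.646 with edgeR, at an unadjusted p of 0.000643. By either scaling the exact two-sided permutation p was 0.1, the smallest possible. With TMM factors from the miRNAs of at least 100 CPM the log2 fold change was 1.61 (adjusted p = 0.00133, edgeR). With cyclic loess, which scales each abundance range separately, it was 1.59 (adjusted p = 0.000888, limma). Leaving out LV-NC 2 ended the call by total UMIs, at an adjusted p of 0.05002 with edgeR and a log2 fold change that stayed within 1.53 to 1.77 over the 6 libraries left out in turn.

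**Figure D2:**
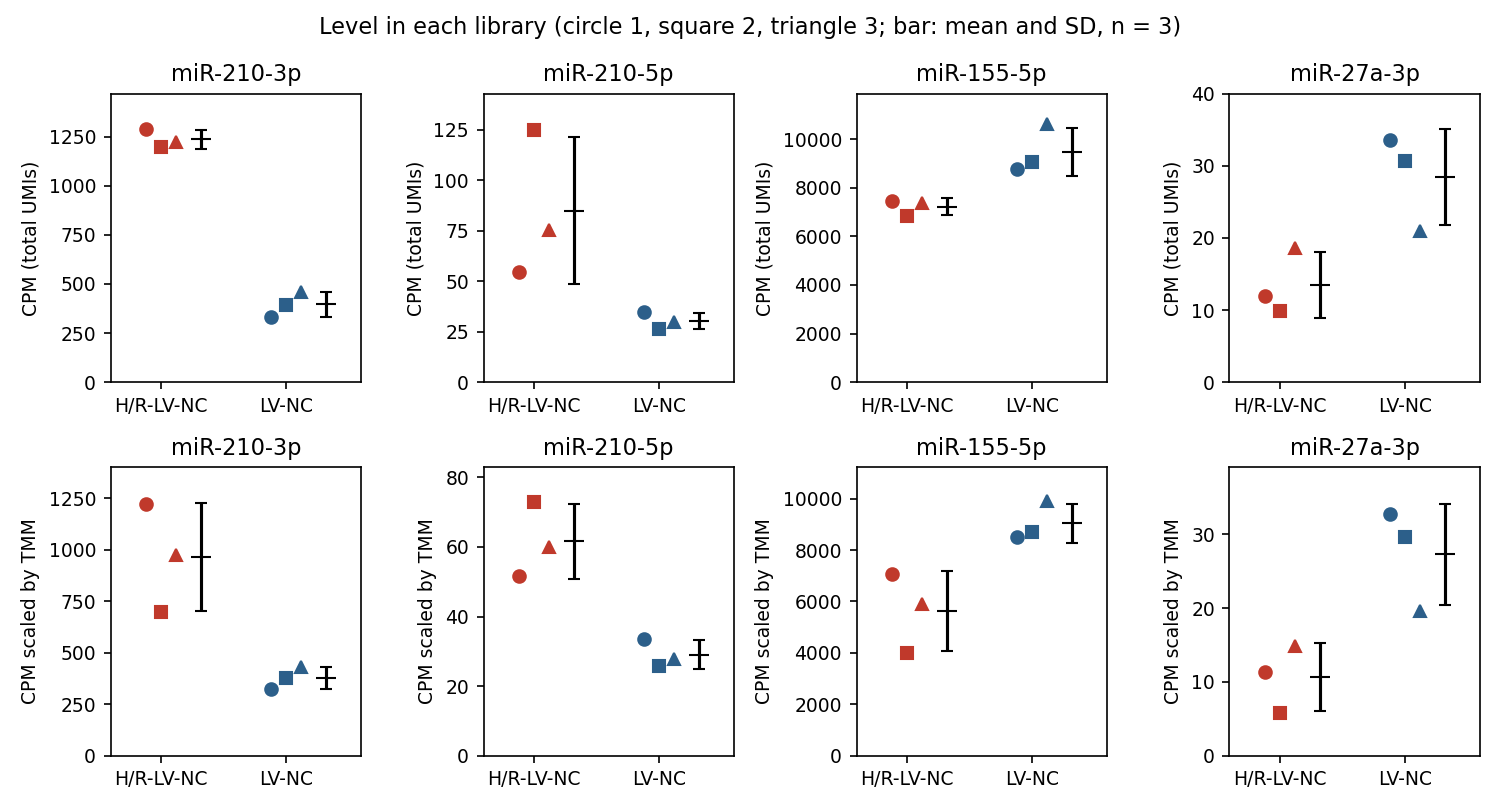
Level of miR-210-3p, miR-210-5p, miR-155-5p and miR-27a-3p in each of the 3 H/R-LV-NC (red, left) and 3 LV-NC (blue, right) libraries, by CPM (upper row) and by TMM-scaled CPM (lower row), with the mean and SD. The H/R-LV-NC libraries of miR-210-3p lie between 1197 and 1288 CPM, all above the LV-NC libraries, which reach 461 CPM.

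Among miRNAs of like abundance, miR-210-3p lay near the top. The 200 tested miRNAs nearest to it in mean CPM had a median log2 fold change of 0.04 by total UMIs and -0.26 by TMM. Their mean levels ranged from 144 to 4385 CPM, so the match was loose. Only 6 of the 200 had a higher value by total UMIs, and 4 by TMM.

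The passenger arm miR-210-5p, which is cut from the same hairpin, moved the same way without passing the test. It was at 54.4, 125 and 75.3 CPM in H/R-LV-NC, against 34.7, 26.6 and 29.6 CPM in LV-NC. The groups did not overlap, and the highest value was that of H/R-LV-NC 2. Its log2 fold change was 1.48 (SE 0.38) by total UMIs and 1.08 (SE 0.41) by TMM, with adjusted p-values of 0.469 and 0.646 in edgeR. miRNAs of like abundance had medians of 0.34 and -0.02 by the same scalings.

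Across the table, the test found little beyond miR-210-3p. By total UMIs 1 of 1682 miRNAs was called at an adjusted p under 0.05 (0.0595%), and by TMM 0 were (0%). TMM over the miRNAs of at least 100 CPM called 1 (0.0595%), and cyclic loess with limma called 1 (0.0595%), miR-210-3p each time. At an unadjusted p under 0.05, edgeR gave 169 miRNAs higher (10.0%) and 10 lower (0.595%) in H/R-LV-NC by total UMIs, and 86 higher (5.11%) and 35 lower (2.08%) by TMM. DESeq2 called 2 miRNAs and limma-voom 0. The number whose groups did not overlap was 237 higher (14.1%) and 25 lower (1.49%) by total UMIs, and 123 higher (7.31%) and 107 lower (6.36%) by TMM. The balance of higher and lower miRNAs therefore depended on the scaling. Of the 1682 miRNAs, 92 had an unadjusted p under 0.05 by both, 86 of them higher and 6 lower. By TMM 121 had one and by total UMIs 179, where 84.1 would be expected by chance in 1 scaling. All 86 that were higher by TMM were also in the set by total UMIs. Both scalings use the same counts, so passing both is not a second test.

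**Figure D3:**
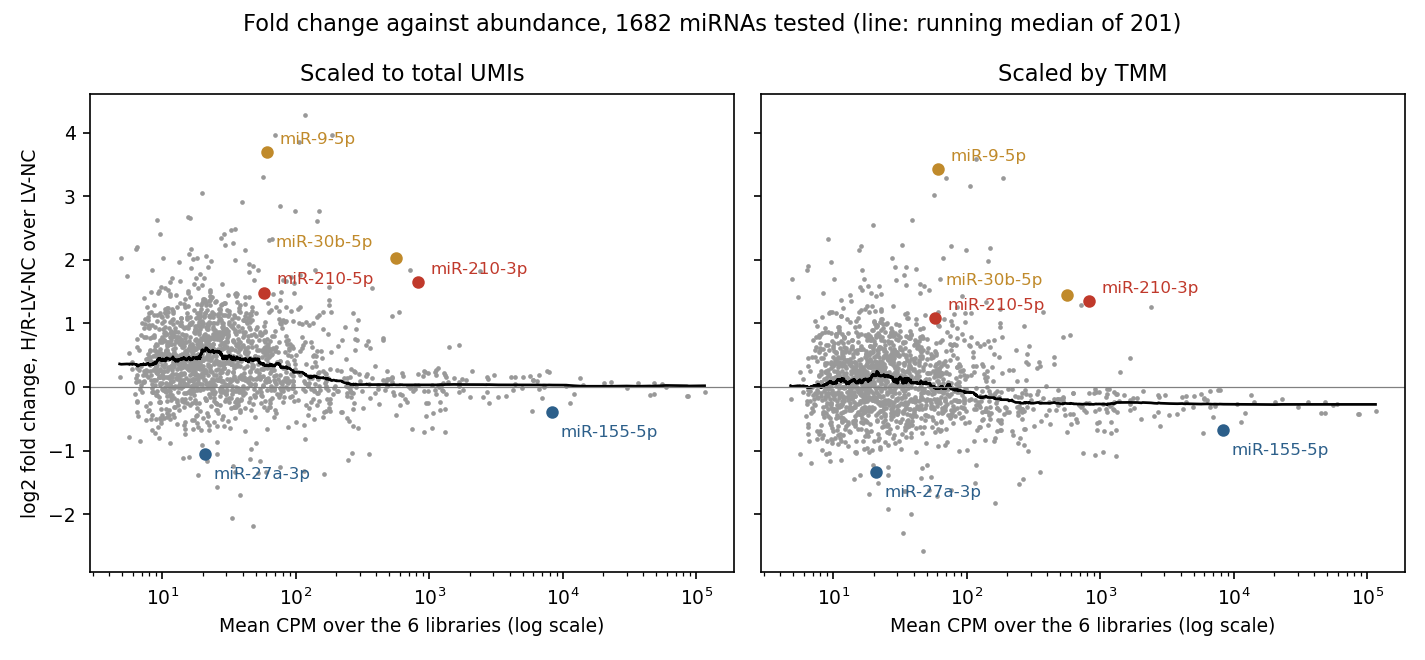
Log2 fold change, H/R-LV-NC over LV-NC, of each of the 1682 tested miRNAs (grey) against its mean CPM on a log scale, by total UMIs (left) and by TMM (right), with a running median of 201 miRNAs (line) and 6 named miRNAs (red or blue where the groups did not overlap, ochre where 1 library set the value). The line lies above 0 at low abundance by total UMIs and below 0 at high abundance by TMM, and miR-210-3p lies well above it in both at 1.64 and 1.35.

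Several further miRNAs did not overlap between the groups under either scaling, and none passed the adjusted test. The rule named the 12 with the smallest TMM p and a mean of at least 50 UMIs. miR-8101, which lies within an exon of Hdac5, a histone deacetylase gene, was at 150, 276 and 372 CPM in H/R-LV-NC, against 79.6, 98.2 and 89.7 CPM in LV-NC. Its log2 fold change was 1.58 by total UMIs and 1.23 by TMM. miR-6238 was at 512, 984 and 959 CPM in H/R-LV-NC, against 380, 293 and 405 CPM in LV-NC. Both were lowest in H/R-LV-NC 1 among the H/R-LV-NC libraries, as H/R-LV-NC 1 was for low-abundance miRNAs as a whole.

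miR-185-3p was at 150, 270 and 336 CPM in H/R-LV-NC, against 108, 80.8 and 121 CPM in LV-NC. miR-7220-3p was at 49.9, 180 and 158 CPM in H/R-LV-NC, against 45.9, 28.6 and 47.0 CPM in LV-NC. For miR-7220-3p, H/R-LV-NC 1 lay only just above the LV-NC range. miR-496b was at 67.8, 144 and 98.8 CPM in H/R-LV-NC, against 54.1, 44.0 and 37.5 CPM in LV-NC. miR-5122 was at 28.3, 58.2 and 139 CPM in H/R-LV-NC, against 13.3, 20.5 and 26.1 CPM in LV-NC. For miR-365-1-5p the difference lay in 1 library, with 26.1, 45.8 and 259 CPM in H/R-LV-NC, against 23.5, 22.5 and 20.0 CPM in LV-NC. The TMM log2 fold change of miR-365-1-5p was 2.03 with all libraries and 0.29 without H/R-LV-NC 3.

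The lower members of that set held well-studied miRNAs. miR-155-5p, an inflammatory miRNA made from the Mir155hg transcript, was at 7433, 6817 and 7389 CPM in H/R-LV-NC, against 8751, 9039 and 10607 CPM in LV-NC. Every H/R-LV-NC library was below every LV-NC library, which the rule required of the lower members. The log2 fold change was -0.39 (SE 0.0906) by total UMIs and -0.68 (SE 0.28) by TMM, with adjusted p-values of 0.469 and 0.646 in edgeR. miRNAs of like abundance had medians of 0.03 and -0.27, and 185 and 181 of the 200 had a higher value than miR-155-5p. Those 200 ranged from 176 to 115104 CPM, so they were not closely matched to its level.

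miR-17-5p, a member of the growth-promoting miR-17~92 cluster, was at 223, 178 and 212 CPM in H/R-LV-NC, against 316, 241 and 332 CPM in LV-NC. Its log2 fold change was -0.53 by total UMIs and -0.81 by TMM. It differs from miR-106a-5p by no more than 1 base, and no source used here states how reads that match both were assigned. miR-7058-3p was at 212, 203 and 223 CPM in H/R-LV-NC, against 405, 248 and 322 CPM in LV-NC. All 3 of these lower miRNAs were lower by both scalings, as the rule that named them required.

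miR-27a-3p, the miRNA that the study follows, was scarce in these vesicles. It ranked 1008 in mean abundance and lies at chr8:84208727-84208747 on the plus strand within Mir27a. Its level was 11.9, 9.91 and 18.7 CPM in H/R-LV-NC, against 33.7, 30.7 and 20.9 CPM in LV-NC. The groups did not overlap, although H/R-LV-NC 3 and LV-NC 3 lay close together. These levels rest on 16, 8 and 27 UMIs in H/R-LV-NC, against 33, 30 and 24 UMIs in LV-NC. Before scaling, H/R-LV-NC 3 thus had more UMIs than LV-NC 3. Its mean count was below the 50 UMIs asked of the miRNAs named by smallest p. The mean level of miR-27a-3p was 13.5 ± 4.58 CPM in H/R-LV-NC and 28.4 ± 6.67 CPM in LV-NC (SD, n = 3 each). The log2 fold change was -1.05 (SE 0.38) by total UMIs and -1.33 (SE 0.45) by TMM, with adjusted p-values of 0.469 and 0.646 in edgeR, unadjusted p-values of 0.0208 and 0.0120, and an exact two-sided permutation p of 0.1.

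Against miRNAs of like abundance miR-27a-3p was at the low end. The 200 nearest had medians of 0.60 by total UMIs and 0.22 by TMM, and 198 of them were above it by either scaling. miR-27a-3p differs from miR-27b-3p by no more than 1 base and shares its seed. miR-27b-3p had log2 fold changes of -0.16 by total UMIs and -0.46 by TMM.

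The rest of the miR-23a/27a/24-2 cluster, whose members are cut from one primary transcript, had values on both sides of 0. Of its 6 mature miRNAs 0 were called, 3 were higher and 3 lower by total UMIs, and 2 were higher and 4 lower by TMM. The other arm of the same hairpin, miR-27a-5p, was at 66.3, 103 and 124 CPM in H/R-LV-NC, against 65.3, 70.6 and 94.1 CPM in LV-NC, with a log2 fold change of 0.35 by total UMIs and 0.02 by TMM. miR-27a-5p was thus more abundant than miR-27a-3p in all 6 libraries. miR-23a-3p had log2 fold changes of 0.04 by total UMIs and -0.24 by TMM, and miR-24-3p had -0.15 and -0.43. The sequence of miR-24-3p has 2 loci, and its listed position is in Mir24-1 on chromosome 13. Its level therefore cannot be assigned to the transcript of this cluster. miR-23a-5p was at 72.2, 126 and 142 CPM in H/R-LV-NC, against 89.8, 88.0 and 305 CPM in LV-NC, and its TMM log2 fold change was -0.84 with all libraries and -0.02 without LV-NC 3.

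None of the 5 most abundant miRNAs was called, where over all 1682 tested miRNAs 1 was called by total UMIs and 0 by TMM. miR-125b-5p was at 119395, 112474 and 103249 CPM in H/R-LV-NC, against 112086, 122380 and 121041 CPM in LV-NC, and the groups overlapped. let-7b-5p was at 84778, 76606 and 84233 CPM in H/R-LV-NC, against 93693, 90358 and 86761 CPM in LV-NC. let-7c-5p, within 1 base of let-7b-5p, was at 83259, 74289 and 86405 CPM in H/R-LV-NC, against 93544, 88103 and 88019 CPM in LV-NC. For both let-7 miRNAs every H/R-LV-NC library was below every LV-NC library, by a log2 fold change of -0.14 by total UMIs and -0.43 by TMM, and neither was called. Over all 1682 tested miRNAs 25 (1.49%) were lower without overlap by total UMIs and 107 (6.36%) by TMM. With TMM factors from the miRNAs of at least 100 CPM the groups overlapped for both let-7 miRNAs. By cyclic loess their log2 fold changes were -0.08 and -0.09.

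miR-16-5p was at 66464, 51673 and 58635 CPM in H/R-LV-NC, against 58679, 58323 and 59997 CPM in LV-NC, and miR-125a-5p at 54998, 63857 and 48575 CPM against 50703, 59181 and 52796 CPM. Both pairs of groups overlapped. Together, the miRNAs with the let-7 seed took 31.9% to 36.1% of UMIs in H/R-LV-NC, against 33.8% to 39.3% in LV-NC. Those with the miR-125 seed took 15.5% to 18.0% in H/R-LV-NC, against 16.5% to 18.5% in LV-NC. At this abundance the fit was precise by total UMIs, where the 95% interval lay within 2-fold for 72 of the 79 miRNAs of at least 1000 CPM, against 46 of 79 by TMM.

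Of the 22 hypoxia-responsive miRNAs, all tested, 1 was called by total UMIs (miR-210-3p) and 0 by TMM. That was the only call by total UMIs among all 1682 tested miRNAs (0.0595%). By total UMIs 18 were higher and 4 lower in H/R-LV-NC, and by TMM 3 were higher and 19 lower, so the direction of most members turned with the scaling. Their median log2 fold change was 0.09 by total UMIs and -0.20 by TMM, beside 0.36 and 0.01 over all tested miRNAs. The miRNAs nearest to each member in mean CPM had medians of 0.04 and -0.26. The members higher under both scalings were miR-210-3p, miR-210-5p and miR-30b-5p, each with an unadjusted p under 0.05 by both in edgeR. On the lower side, 2 members had an unadjusted p under 0.05 by both scalings, miR-27a-3p at -1.05 by total UMIs and -1.33 by TMM, and miR-155-5p at -0.39 and -0.68. Over all 1682 tested miRNAs 86 higher and 6 lower ones had such a p by both.

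miR-30b-5p, of the miR-30 family that is abundant in kidney tubules, had the highest fold change of that list and owed it to 1 library. It was at 224, 2202 and 277 CPM in H/R-LV-NC, against 206, 206 and 248 CPM in LV-NC. H/R-LV-NC 2 alone lay outside the range of the rest. Its TMM log2 fold change was 1.45 with all libraries and 0.07 without H/R-LV-NC 2. Its relatives miR-30a-5p, miR-30c-5p, miR-30d-5p and miR-30e-5p had log2 fold changes of -0.03, -0.09, 0.01 and 0.13 by total UMIs and of -0.32, -0.36, -0.27 and -0.18 by TMM.

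The hypoxia-linked cluster of miR-322, miR-503 and miR-351 on the X chromosome had 10 members tested and 0 called. By total UMIs 9 were higher, and by TMM 3 were, with medians of 0.20 and -0.11 beside 0.29 and -0.05 in miRNAs of like abundance. Among its members with a mean of at least 50 UMIs the extremes were miR-542-3p at 0.43 by total UMIs and 0.10 by TMM, and miR-351-3p at -0.12 and -0.47.

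No list linked to fibrosis had a called member, where over all 1682 tested miRNAs 1 was called by total UMIs (0.0595%) and 0 by TMM. Of 11 pro-fibrotic miRNAs tested 6 were higher by total UMIs and 1 by TMM, with medians of 0.06 and -0.24 beside 0.16 and -0.16 in miRNAs of like abundance. The lowest member was miR-155-5p at -0.39 by total UMIs and -0.68 by TMM, and the highest, named after its values were seen, was miR-433-3p at 1.71 and 1.28. The list also holds miR-21a-5p, whose log2 fold change was 0.06 by total UMIs and -0.24 by TMM, and miR-150-5p at 0.37 and -0.01. Of 14 anti-fibrotic miRNAs tested 6 were higher by total UMIs and 1 by TMM, with medians of -0.04 and -0.33 beside 0.04 and -0.25. The lowest member of that list was miR-27a-3p at -1.05 by total UMIs and -1.33 by TMM, and the highest, named after its values were seen, was miR-133a-3p at 0.87 and 0.59. miR-19b-3p was at 0.24 by total UMIs and -0.05 by TMM.

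Members of the let-7 and miR-17~92 families were mostly lower in H/R-LV-NC, as were most miRNAs of at least 100 CPM by TMM. By TMM 3 of the 79 tested miRNAs of at least 1000 CPM and 61 of the 208 of 100 to 1000 CPM were higher. By total UMIs 45 and 127 were. Of 9 let-7 miRNAs, 9 were lower by TMM and 7 by total UMIs, with medians of -0.41 and -0.12 by these scalings. Members ranged between -0.25 for miR-98-5p and 0.06 for let-7f-5p by total UMIs. Of 11 miRNAs of miR-17~92 and its paralogs, 11 were lower by TMM and 7 by total UMIs, with medians of -0.43 and -0.13 by these scalings. miRNAs of like abundance had medians of -0.27 by TMM and 0.03 by total UMIs for let-7, and of -0.19 and 0.13 for miR-17~92. No member of either list was called.

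**Figure D4:**
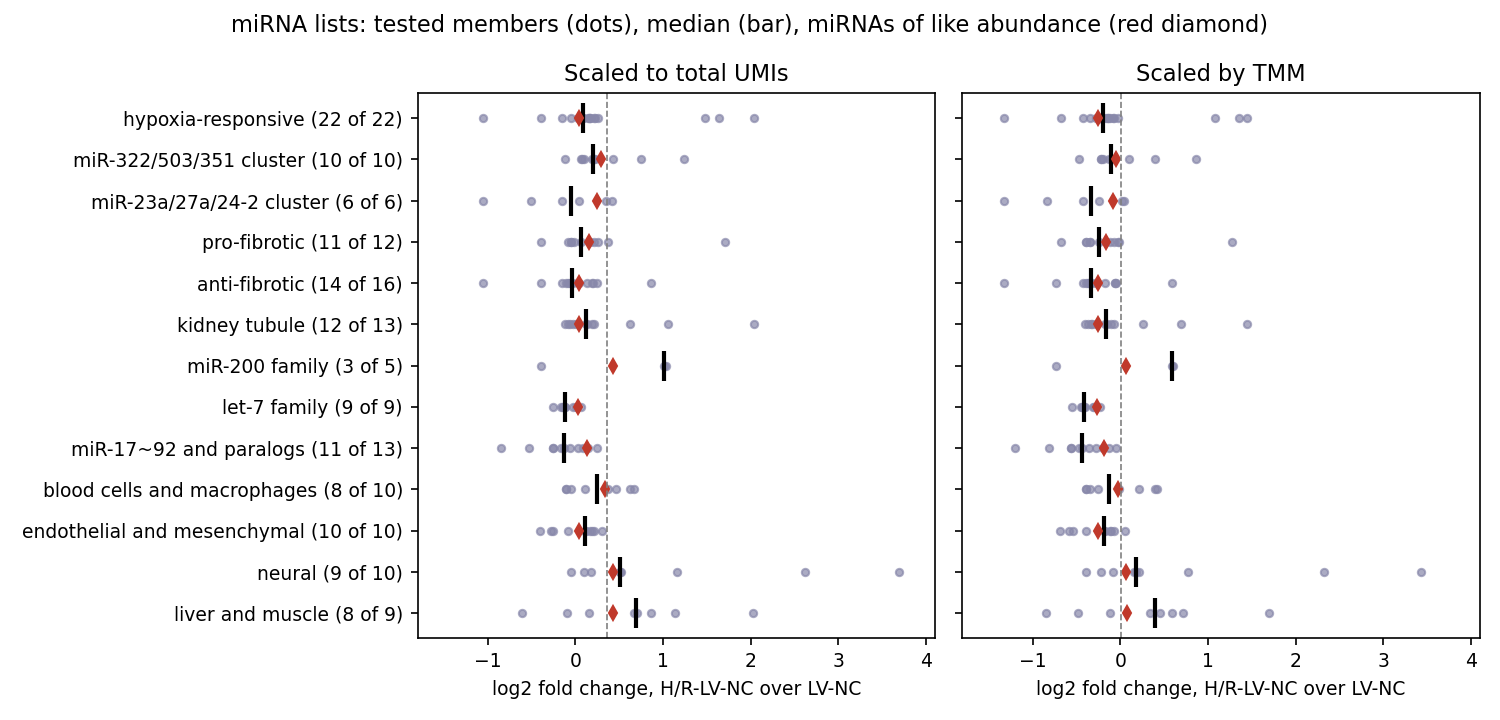
Log2 fold change, H/R-LV-NC over LV-NC, of the tested members of 13 miRNA lists (dots; tested and listed numbers beside each name), with each list's median (bar), the median of miRNAs of like abundance (red diamond) and the median of all 1682 tested miRNAs (dashed line at 0.36 by total UMIs and 0.01 by TMM). Most list medians lie close to their red diamond, and the far right points are single miRNAs such as miR-9-5p at 3.69 by total UMIs.

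miRNAs typical of kidney tubules and of epithelia were counted, and whether they mark the labelled cell type was not tested. Of 13 kidney tubule miRNAs 12 were tested, and their summed level was 35267 to 37886 CPM in H/R-LV-NC and 34409 to 40274 CPM in LV-NC. Their median log2 fold change was 0.13 by total UMIs and -0.16 by TMM, and 0 were called. miR-196a-5p, their most abundant member with a log2 fold change of -0.12 by total UMIs, was at 10852 to 12248 CPM in H/R-LV-NC and 12006 to 14070 CPM in LV-NC. The miR-200 family, which marks epithelia, was scarce, with 3 of 5 members tested and a summed level of 37.2 to 112 CPM in H/R-LV-NC and 26.5 to 47.0 CPM in LV-NC. Its median log2 fold change was 1.01 by total UMIs and 0.60 by TMM, beside 0.43 and 0.06 in miRNAs of like abundance, and the highest sum was that of H/R-LV-NC 2.

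miRNAs typical of other cell types were also counted. The 10 endothelial and mesenchymal miRNAs summed to 25333 to 27667 CPM in H/R-LV-NC and 26460 to 28635 CPM in LV-NC, with 0 called, medians of 0.11 by total UMIs and -0.18 by TMM, and no member at 0. By total UMIs 6 of the 10 were higher in H/R-LV-NC, and by TMM 1 was. miR-143-3p, the most abundant and chosen after its values were seen, was at 10489, 9991 and 10324 CPM in H/R-LV-NC, against 11032, 11890 and 13764 CPM in LV-NC. Its cluster partner miR-145a-5p was at 1039, 842 and 872 CPM in H/R-LV-NC, against 1170, 1275 and 1208 CPM in LV-NC. In both, every H/R-LV-NC library was below every LV-NC library, with log2 fold changes of -0.25 and -0.41 by total UMIs and of -0.54 and -0.68 by TMM, and neither was called. They were the only members of this list with an unadjusted p under 0.05 by total UMIs, and by TMM none had one. Over all 1682 tested miRNAs 25 (1.49%) were lower without overlap by total UMIs and 107 (6.36%) by TMM. For this list miRNAs of like abundance had medians of 0.04 by total UMIs and -0.25 by TMM. miR-126a-5p of the same list was at 0.30 by total UMIs and 0.05 by TMM.

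The 10 miRNAs of blood cells and macrophages, 8 of them tested, summed to 1660 to 1905 CPM in H/R-LV-NC and 1818 to 1899 CPM in LV-NC, with medians of 0.24 by total UMIs and -0.13 by TMM, 0 called, and 1 member at 0 in H/R-LV-NC 2. miR-223-3p, typical of myeloid cells, was at 87.9, 71.9 and 69.8 CPM in H/R-LV-NC, against 52.0, 45.01 and 47.0 CPM in LV-NC, and overlapped once scaled by TMM. miR-146a-5p was at -0.11 by total UMIs and -0.39 by TMM. For this list miRNAs of like abundance had medians of 0.33 by total UMIs and -0.02 by TMM. Another member of its family was also read. miR-146b-5p, which shares the seed of miR-146a-5p and was chosen after its values were seen, was at 524, 411 and 509 CPM in H/R-LV-NC, against 555, 671 and 724 CPM in LV-NC. The part of other cell types in the results was not tested.

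The 8 tested liver and muscle miRNAs had medians of 0.69 by total UMIs and 0.40 by TMM, beside 0.43 and 0.07 in miRNAs of like abundance. By total UMIs 6 of the 8 were higher in H/R-LV-NC, and by TMM 5 were. The highest values were 2.02 by total UMIs and 1.70 by TMM. All 9 listed members summed to 2617 to 3385 CPM in H/R-LV-NC and 2616 to 2833 CPM in LV-NC. Most of that sum was miR-206-3p, a muscle miRNA at 0.16 by total UMIs and -0.12 by TMM. miR-122-5p, typical of liver, was at 101, 54.5 and 115 CPM in H/R-LV-NC, against 176, 116 and 121 CPM in LV-NC. It was the lowest member, with log2 fold changes of -0.60 by total UMIs and -0.85 by TMM. The 9 tested neural miRNAs had medians of 0.51 by total UMIs and 0.18 by TMM, beside 0.43 and 0.07 in miRNAs of like abundance. By total UMIs 8 of the 9 were higher in H/R-LV-NC, and by TMM 6 were. All 10 listed members summed to 715 to 1436 CPM in H/R-LV-NC and 668 to 825 CPM in LV-NC. miR-128-3p of the neural list was at 0.18 by total UMIs and -0.09 by TMM. No member of either list was called, and each had 1 member at 0 in 1 library, H/R-LV-NC 1 for liver and muscle and LV-NC 1 for neural.

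Single libraries set several of the highest fold changes. Among the 1682 tested miRNAs, at least 50% of the CPM summed over the 6 libraries came from a single one in 37 miRNAs for H/R-LV-NC 2, 13 for H/R-LV-NC 3 and 0 for H/R-LV-NC 1, against 1, 2 and 11 for LV-NC 1 to 3. miR-9-5p was at 11.9, 8.67 and 316 CPM in H/R-LV-NC, against 9.18, 7.16 and 9.58 CPM in LV-NC, so that H/R-LV-NC 3 alone was high. Its TMM log2 fold change was 3.43 with all libraries and -0.01 without H/R-LV-NC 3.

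The next examples were chosen after their values were seen. miR-6956-5p was at 12.7, 638 and 13.8 CPM in H/R-LV-NC, against 5.10, 19.4 and 9.58 CPM in LV-NC. miR-8099 was at 1487, 8850 and 873 CPM in H/R-LV-NC, against 1725, 715 and 718 CPM in LV-NC. Without H/R-LV-NC 2 their TMM log2 fold changes were 0.11 and 0.07, against 3.59 and 1.26 with all libraries. In neither miRNA did the other H/R-LV-NC libraries lie above the LV-NC range.

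miR-341-3p, also chosen after its values were seen, was unlike these in being higher in all 3 H/R-LV-NC libraries. It lies at chr12:109611556-109611576 within an intron of Rian, a maternally expressed noncoding RNA of the imprinted Dlk1-Dio3 region. It was at 63.3, 24.8 and 76.7 CPM in H/R-LV-NC, against 9.18, 11.3 and 9.58 CPM in LV-NC, with no overlap. The log2 fold change was 2.46 (SE 0.45) by total UMIs and 2.24 (SE 0.51) by TMM, with adjusted p-values of 0.262 and 0.646 in edgeR. DESeq2 called it beside miR-210-3p, and without H/R-LV-NC 2 it was called by edgeR with TMM at an adjusted p of 0.0231. miR-7073-3p, likewise chosen after its values were seen, was at 155, 191 and 194 CPM in H/R-LV-NC, against 95.9, 75.7 and 97.6 CPM in LV-NC, with log2 fold changes of 1.00 by total UMIs and 0.68 by TMM, and it was not called.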

How the data were processed

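The deposited table gives, per mature miRNA and library, UMI counts and the CPM the authors derived from them by dividing by library totals. The libraries were made with a QIAseq miRNA kit from exosomes isolated by ultracentrifugation. Tools named in the submitters' processing notes are cutadapt 2.7, Bowtie 1.3.0 and edgeR. No build is named there, and positions match GRCm38. Reads that match several miRNAs may have been split or assigned in ways not given there.

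The UMI counts were tested with edgeR 4.0.16 in R 4.3.3 (filterByExpr, TMM, quasi-likelihood, 1 fit of 9 libraries, Benjamini-Hochberg over 1682 miRNAs; 296 were filtered out), and again scaled to total UMIs. Calls needed an adjusted p under 0.05. Like abundance means the 200 tested miRNAs nearest in mean CPM. For abundant miRNAs this set spanned a wide range of levels, such as 176 to 115104 CPM for miR-155-5p. limma 3.58.1 and DESeq2 1.42.0 served the alternatives, which also varied the scaling, the filter and the libraries. The steps were tested on simulated data. Figures used matplotlib 3.10.9. Gene annotation came from GENCODE.

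Named are miR-210-3p, miR-210-5p, miR-27a-3p, called miRNAs, the 12 of smallest TMM p that averaged 50 UMIs or more and did not overlap under either scaling, the 5 most abundant, and each list's extremes. The members and the 13 lists were chosen with earlier results of these data known. Intervals cover the spread between libraries.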

Additional observations from a re-analysis of the deposited data

How the results depend on the processing

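With 3 libraries a group the test of TMM-scaled counts called 0 miRNAs. By total UMIs the 95% interval lay within 2-fold for 152 of the 1219 miRNAs of 10 to 100 CPM and for 72 of the 79 of at least 1000 CPM. Depth was not varied, so its part in this was not tested. The count was 1 by total UMIs, by TMM over miRNAs of at least 100 CPM, by cyclic loess and when miRNAs had to average 50 UMIs, and 2 by DESeq2. RLE, upper quartile, no filter, only the 6 libraries, limma-voom and the robust fit called 0. Leaving out each library in turn gave 0 to 1 by TMM and 0 to 2 by total UMIs, with 1 by TMM and 2 by total UMIs without H/R-LV-NC 2, and 0 by total UMIs without LV-NC 2. The alternatives that combine total UMIs, restricted TMM or loess with other choices were chosen after seeing the data.

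The log2 fold change of miR-210-3p passed the threshold at 1.64 by total UMIs (1.64 with only the 6 libraries), 1.61 by restricted TMM, 1.59 by loess, 1.53 when miRNAs had to average 50 UMIs and 1.31 by DESeq2. Leaving out each library in turn it was 1.14 to 1.56 by TMM, 1.53 to 1.77 by total UMIs (1.61, 1.67 and 1.65 without H/R-LV-NC 1 to 3, and 1.53 and 1.77 without LV-NC 1 and 3), 1.48 to 1.69 by restricted TMM (1.504, 1.61 and 1.63 without H/R-LV-NC 1 to 3, and 1.48, 1.58 and 1.69 without LV-NC 1 to 3) and 1.53 to 1.66 by loess (1.54, 1.62 and 1.61 without H/R-LV-NC 1 to 3, and 1.53, 1.59 and 1.66 without LV-NC 1 to 3). miR-27a-3p was -1.66 to -1.02 by TMM without each library and was called under none of its alternatives.

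Same-numbered libraries of the groups had correlations of -0.03, 0.01 and 0.06 in their deviations. Libraries with different numbers had -0.09 to 0.09. Whether a replicate number marks a shared culture was not tested. With the replicate block 0 miRNAs were called by TMM and 0 by total UMIs, where the smallest adjusted p was 0.0508 with edgeR.

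The signs of several miRNAs turned against those by TMM. All but miR-9-5p lay within 0.3 of 0 by TMM. miR-9-5p, at 3.43, turned only without H/R-LV-NC 3, which held most of its UMIs among the 6 libraries compared. The cause of the other turns was not tested. By total UMIs log2 fold changes were 0.0415 for miR-125a-5p, 0.37 for miR-150-5p, 0.24 for miR-19b-3p, 0.0637 for let-7f-5p, 0.18 for miR-128-3p and 0.16 for miR-206-3p. By restricted TMM they were 0.32 for miR-150-5p, 0.22 for miR-19b-3p, 0.0157 for let-7f-5p, 0.14 for miR-128-3p and 0.11 for miR-206-3p. By loess they were 0.0421 for miR-16-5p, 0.0798 for miR-125a-5p, 0.19 for miR-19b-3p, 0.12 for let-7f-5p, 0.0709 for miR-128-3p and 0.11 for miR-206-3p. When miRNAs had to average 50 UMIs they were 0.22 for miR-150-5p, 0.12 for miR-19b-3p, 0.0557 for miR-128-3p and 0.0343 for miR-206-3p. miR-27a-5p was -0.0338 by RLE, -0.0334 by DESeq2, -0.00803 by limma-voom and -0.00427 with the replicate block. miR-126a-5p was -0.0535 by limma-voom and -0.0257 with the replicate block. Without each library in turn the ranges were -0.0361 to 0.20 for miR-542-3p, -0.25 to 0.17 for miR-27a-5p, -0.10 to 0.0563 for miR-150-5p, -0.21 to 0.18 for miR-19b-3p, -0.22 to 0.38 for miR-126a-5p, -0.0123 to 4.02 for miR-9-5p, -0.35 to 0.25 for miR-128-3p and -0.32 to 0.15 for miR-206-3p.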
